A study of Mus musculus with 4 samples.

Results

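C1q-positive macrophages of mouse small intestinal adenomas were examined by single-cell RNA sequencing. A macrophage was a barcode with at least 1000 unique molecular identifiers (UMIs, each counting 1 captured transcript), at least 200 genes and at most 20% mitochondrial UMIs that met 4 conditions. At least 2 of C1qa, C1qb and C1qc were detected with at least 3 UMIs in all, Tyrobp had at least 1 UMI, Epcam, Krt8 and Krt19 together made up less than 0.2% of UMIs, and Cd3d, Cd3e and Cd3g were at 0. The rule selected 228 of 12349 barcodes that passed the same limits on UMIs, genes and mitochondrial share (1.85%). There were 101 macrophages in the library labelled ApcMin replicate 1, 22 in ApcMin replicate 2, 59 in VApcMinL replicate 1 and 46 in VApcMinL replicate 2. Values of the 4 libraries are given in that order.

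Both groups came from ApcMin/+ mice, labelled as C57BL/6, male and 11 weeks old, and each library pooled several dissociated tumors that were not sorted. ApcMin mice, which develop adenomas because the ApcMin allele inactivates the tumor suppressor Apc, were labelled Lef1 +/+. VApcMinL mice were labelled Lef1 fl/fl with Villin-Cre, a transgene that acts in the intestinal epithelium and not in macrophages, to remove the Wnt pathway transcription factor Lef1 from the epithelium. The comparison therefore asks how macrophages in the tumor differ between these labelled genotypes, and not by epithelial Lef1 alone. Of these groups, the study's methods name Villin-Cre for VApcMinL only. They also give a mixed strain background for Lef1 fl/fl mice before backcrossing to C57BL/6. Effects of the transgene or of strain background were not tested. Kit version 2 of the 10x 3′ chemistry was used for both replicates 1, and kit version 3 for both replicates 2. Group means hold 2 libraries each, and p-values rest on these libraries and not on cells. With the kit as a block, the gene test sets a change against the disagreement between kits, with information shared across genes.

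Several measurements went against the labels. Y-linked transcripts (Ddx3y, Eif2s3y, Kdm5d and Uty) were detected in 47 of 101 macrophages of ApcMin replicate 1 and 16 of 22 of ApcMin replicate 2, with Xist, the transcript of the inactive X chromosome, at 0 UMIs in both. In VApcMinL replicate 1, 57 of 59 macrophages held Xist and none held a Y-linked transcript. In VApcMinL replicate 2, 14 of 46 macrophages held Xist alone, 17 Y-linked transcripts alone, 3 both and 12 neither. All 4 libraries are labelled male. The groups thus differed in these transcripts as well as in their genotype label, although VApcMinL replicate 2 was mixed. Outside the macrophages, barcodes with few UMIs held Xist in all libraries, ApcMin included. Sex and genotype cannot be told apart in these 4 libraries. Lef1 had 1 UMI among 1309961 UMIs of all macrophages. In epithelial cells Lef1 was at 4.80, 8.99, 10.3 and 15.2 CPM (UMIs of a gene, scaled to 1000000 UMIs of the cells summed), higher in both libraries labelled VApcMinL. Counts of 3′ ends can include a transcript that lacks deleted internal exons, so this level does not check the deletion. Libraries are called by their labels for these reasons.

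C1q is the recognition molecule of the classical complement pathway. It is assembled from A, B and C chains, encoded by C1qa, C1qb and C1qc, and binds antibodies in immune complexes as well as dying cells. Most proteins of the complement cascade are made in the liver, but C1q is made mainly by macrophages and dendritic cells in tissues. In the intestine, monocytes that enter from the blood mature into macrophages that hold much MHC class II, take up dead cells and bacteria and make little inflammatory cytokine.

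The 3 genes lie side by side on the minus strand of chromosome 4 in GRCm38 (GENCODE M21), with C1qb at chr4:136880129-136886187, C1qc at chr4:136889804-136893065 and C1qa at chr4:136895917-136898803. The RefSeq promoter table (GRCm38.p6) held C1qb and C1qc. Their sequences before the first annotated exon are shown because the shares of the 3 transcripts went together from cell to cell within each library (Spearman's rho from 0.52 to 0.82 over the 3 gene pairs and 4 libraries, a description over cells of 1 library). Capitals mark ACTTCCT, which on the other strand reads AGGAAGT, a core bound by ETS family factors such as PU.1, the product of Spi1 and a regulator of macrophage genes. The first sequence is chr4:136886201-136886450 and the second chr4:136893066-136893164, both on the minus strand and written 5′ to 3′.
C1qb: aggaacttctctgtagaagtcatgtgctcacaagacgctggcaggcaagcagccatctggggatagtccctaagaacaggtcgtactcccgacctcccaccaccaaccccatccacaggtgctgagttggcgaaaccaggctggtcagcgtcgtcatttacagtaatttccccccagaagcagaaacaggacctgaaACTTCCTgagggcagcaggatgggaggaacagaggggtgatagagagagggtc
C1qc: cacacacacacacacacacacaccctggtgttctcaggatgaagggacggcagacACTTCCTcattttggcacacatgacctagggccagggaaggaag
AGGAAGT was present on either strand in 7.69% of the 32851 promoters of the table (250 bases before the start). Of the 3 other overlapping words searched, GAGGAAG (10.6% of promoters) and GAGGAAGT (2.44%) were found in C1qc at the same place and not in C1qb, and GGGGAAGT (1.24%) in neither. A match is a description of the letters and not of binding. Spi1 itself was at 439, 493, 407 and 386 CPM in the macrophages of the 4 libraries.

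The macrophages were chosen by their UMIs of C1q, Tyrobp, epithelial and Cd3 genes, so the levels of these genes are a description. The 3 C1q genes together had from 3 to 397 UMIs per macrophage (median 75). C1qa was at 6067, 5153, 8069 and 5579 CPM, C1qb at 5289, 4247, 6542 and 4415 CPM and C1qc at 4203, 3069.5, 5045 and 2952 CPM. The order C1qa, C1qb, C1qc was the same in every library, in UMIs of 3′ ends, which were not scaled by length. All 3 genes were detected in 98.0%, 90.9%, 94.9% and 95.7% of the macrophages. Tyrobp, the adaptor DAP12 of myeloid receptors, was at 3075, 2508, 3650.2 and 2781 CPM. Inside the rule, 2 macrophages had 3 to 5 C1q UMIs, 5 had a single Tyrobp UMI and 18 had epithelial keratin and Epcam UMIs between 0.1% and 0.2%. Outside it, 41 barcodes that met the other conditions had 1 or 2 C1q UMIs, 3 lacked Tyrobp, 11 held a Cd3 UMI, 9 had an epithelial share of 0.2% to 0.3% and 11 a higher one.

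Depth differed between the kits. The median macrophage had 3731 and 4668 UMIs in ApcMin replicate 1 and VApcMinL replicate 1 (kit version 2) and 10370 and 6714.5 in ApcMin replicate 2 and VApcMinL replicate 2 (kit version 3), from libraries of 44660305 to 128247396 UMIs over all barcodes. No macrophage barcode was shared between libraries, although 18 of the barcodes that passed the quality limits were shared by both kit 2 libraries and 1 by ApcMin replicate 1 and VApcMinL replicate 2. Scrublet scores barcodes as possible doublets. Among a preset number of the highest-scored barcodes of each library were 3 of the 228 macrophages.

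The macrophage label held against genes the rule did not use. Csf1r, the receptor for the growth factor that keeps macrophages alive, was at 1050.1, 1331, 1094 and 838 CPM, against 1.79, 0.202, 1.12 and 0.212 CPM in epithelial cells. Adgre1, which encodes the macrophage surface protein F4/80, was at 234, 234, 265 and 205 CPM. Cd68, a lysosomal glycoprotein, was at 495, 399.6, 581 and 408 CPM. All 14 macrophage identity genes had at least 1 UMI in each library, which is a low bar. Their summed level, most of it Apoe and Lyz2, was 45163, 42735, 62506 and 50697 CPM. Apoe, which carries lipid out of cells, was the gene with the highest mean level after ribosomal and mitochondrial genes were left out, at 26682, 24033, 36428 and 33689 CPM. Lyz2, the lysozyme of myeloid cells, was at 6720.0, 6288, 12422 and 4858 CPM and Fcer1g, the signalling chain of Fc receptors, at 3077, 2912, 3828 and 2911 CPM. Among the 15 genes with the highest mean were also the ferritin chains Fth1 and Ftl1, the MHC class II genes Cd74, H2-Ab1, H2-Aa and H2-Eb1, the cytoskeletal genes Tmsb4x and Actb, and Malat1, Gm42418, C1qa, C1qb and Tpt1. When each cell was thinned to 1000 UMIs, Csf1r was detected in 64.4%, 54.5%, 69.5% and 54.3% of macrophages, against 0 to 0.492% of epithelial cells. Without thinning the macrophage values ran from 87.1% to all cells of a library, from median depths of 3731, 10370, 4668 and 6714.5 UMIs against 15269, 27440.5, 13585.5 and 21851 in epithelial cells.

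**Figure D1:**
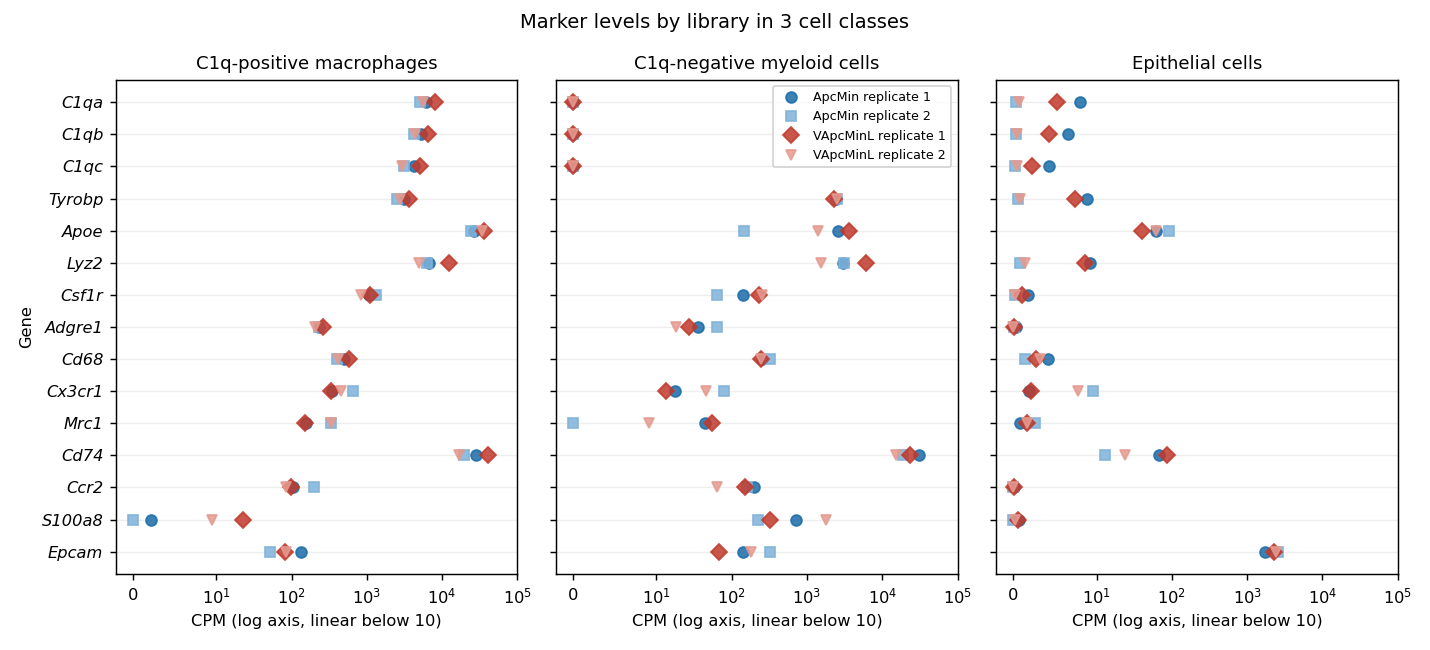
Levels of 15 marker genes in CPM (log axis, linear below 10) in the macrophages, in C1q-negative myeloid cells and in epithelial cells, with 1 point per library. Csf1r lay between 838 and 1331 CPM in the macrophages of the 4 libraries and at or below 256 CPM in C1q-negative myeloid cells, whereas Cd74 overlapped between these classes.

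Markers of other cell types were low but not uniformly so. Of the 7 measured T cell genes, 6 were at 0 in all libraries, Cd3d, Cd3e and Cd3g by the rule and Cd2, Lck and Cd8a without it, and the summed level was 8.92, 34.0, 0 and 41.1 CPM. NK cell genes summed to 31.2, 4.25, 22.6 and 9.48 CPM with Ncr1, Prf1, Eomes, Klre1 and Klra8 at 0. Dendritic cell genes summed to 62.4, 68.0, 32.3 and 25.3 CPM, and Flt3 and Zbtb46, which define classical dendritic cells, were at 0. Neutrophil genes summed to 42.4, 29.8, 96.8 and 41.1 CPM with Ly6g, Cxcr2, Camp, Ngp and Stfa2 at 0. Mast cell genes summed to 55.7, 97.8, 119 and 9.48 CPM, fibroblast genes to 40.1, 17.0, 126 and 0 CPM, and endothelial genes, mostly Pecam1, to 125, 106, 119 and 152 CPM. These levels left few counts of T cell, NK cell, dendritic cell, neutrophil, mast cell or stromal type. B and plasma cell genes follow.

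Plasma cell, red blood cell and epithelial transcripts were present. Plasma cell and red blood cell genes were highest in ApcMin replicate 1 and epithelial genes in VApcMinL replicate 1. Epithelial genes, of which the rule limited Epcam, Krt8 and Krt19, summed to 1505, 918, 1617 and 778 CPM. B and plasma cell genes summed to 771, 63.8, 171 and 63.2 CPM, nearly all of it Jchain, with Ms4a1 at 0. Red blood cell genes summed to 1059, 0, 45.2 and 22.1 CPM, so macrophages of ApcMin replicate 1 held hemoglobin transcripts that those of ApcMin replicate 2 lacked. Barcodes with 10 to 100 UMIs, which mostly hold free RNA, had B and plasma cell genes at 7653, 313, 2198 and 247 CPM and red blood cell genes at 6155, 2060.3, 2338 and 2289 CPM. Their part in any difference between the groups was not tested.

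Complement genes other than C1q were detected at far lower levels. C3ar1 and C5ar1, receptors for the fragments C3a and C5a, were at 249.7, 391, 303 and 294 CPM and 269.8, 140.3, 265 and 161 CPM. Cfp, which encodes properdin, the stabilizer of the alternative pathway convertase, was at 301, 285, 355 and 249.7 CPM. Receptor and properdin transcripts thus accompanied C1q in every library, whereas C3, the central protein of the cascade, had 3, 0, 1 and 14 UMIs, C2 had 2, 0, 2 and 8, and C4b had 6, 0, 1 and 1. Vsig4, a receptor for C3 fragments on some resident macrophages, was at 0. The integrin chains Itgam and Itgax of complement receptors 3 and 4 were at 107, 255, 61.3 and 177 CPM and 189.5, 349, 113 and 284 CPM, higher in both kit 3 libraries. The 15 complement genes summed to 16753, 13979, 20917 and 14242 CPM.

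MHC class II genes had the highest mean of the list sums over the 4 libraries, although identity genes summed to more in both replicates 2. Cd74, the invariant chain that guides class II molecules, was at 28476, 19518, 40856 and 16704 CPM. H2-Ab1 was at 8194, 8052, 12345 and 6040.0 CPM and H2-Aa at 7991, 7053, 10115 and 5439 CPM. VApcMinL replicate 1 was the highest and VApcMinL replicate 2 the lowest library for each of these 3 genes, so that the group labelled VApcMinL spanned both libraries of the other group. Ciita, the master regulator of class II genes, was at 55.7, 162, 45.2 and 120.1 CPM and the costimulatory ligand Cd86 at 252, 119, 148 and 278 CPM. The 13 genes of the list summed to 53309.7, 42339.6, 73760.2 and 33888 CPM.

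Transcripts for taking up and degrading material were abundant. Lysosome genes summed to 17649.5, 19106, 22434 and 20079.6 CPM, led by Psap at 3489, 4438, 4864 and 3685 CPM, Ctss at 2816, 2423, 3937 and 3025 CPM and Ctsb at 2111, 2309, 2343 and 2649 CPM. Psap encodes the precursor of saposins, which help to break down sphingolipids, and Ctss and Ctsb encode cathepsin proteases. The lysosome sum was of similar size in the 4 libraries. Lipid handling genes summed to 30900.0, 28017, 41286 and 40406 CPM, most of it Apoe. Npc2, which moves cholesterol out of lysosomes, was at 1242, 1169, 1536 and 1277 CPM and Cd63, a lysosomal tetraspanin, at 778, 497, 1133 and 1555 CPM. Trem2, a lipid receptor that signals through the Tyrobp product, was at 120.4, 46.8, 136 and 256 CPM, with 54, 11, 42 and 81 UMIs.

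Dead cell uptake genes summed to 1690.0, 2070.4, 1804 and 1950.1 CPM. The highest means of the list were those of scavenger receptors, with Msr1 at 269.8, 480.4, 290.5 and 414 CPM and Stab1 at 229.6, 340.1, 252 and 253 CPM, and of the integrin chain Itgb5 at 276, 238, 303 and 215 CPM. Of the TAM receptors that recognise dying cells through bridging proteins, Axl was at 268, 208, 223 and 149 CPM and Mertk at 62.4, 89.3, 51.6 and 107 CPM, and Tyro3 was at 0. Marco had 16 UMIs in a single macrophage of VApcMinL replicate 2 and none elsewhere. Fc receptor genes summed to 4945, 4634, 5787 and 4634 CPM, with the activating receptors Fcgr3 at 894, 714, 871 and 834 CPM and Fcgr4 at 379, 502, 449 and 319 CPM after Fcer1g. Iron and heme genes summed to 29471, 19943, 25587 and 33165 CPM. Fth1 was at 13922, 11781, 10870.1 and 23145 CPM, Ftl1 at 14675, 7164, 13962 and 9071 CPM and Blvrb, which reduces biliverdin, at 326, 340.1, 303 and 341 CPM.

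Genes of long-lived resident macrophages were detected in part. Selenop, a selenium carrier, was at 1554, 1229, 1801 and 778 CPM, Pf4 at 1246, 795, 894 and 1141 CPM and Stab1 as given above. Timd4 and Cd4, which mark self-maintaining macrophages of the gut, had 28, 9, 22 and 14 and 46, 20, 23 and 29 UMIs. Cd163, Lyve1, Folr2, Cbr2 and F13a1, by contrast, had at most 5 UMIs in any library. After thinning to 1000 UMIs, Cd4 was detected in 17.8%, 9.09%, 11.9% and 4.35% of macrophages and Timd4 in 1.98%, 9.09%, 8.47% and 8.70%, against at most 0.0930% of epithelial cells for either gene. The unthinned values were 31.7%, 45.5%, 33.9% and 28.3% for Cd4 and 15.8%, 18.2%, 23.7% and 23.9% for Timd4. The resident list summed to 3686, 3303, 3602 and 3034 CPM. Monocyte genes summed to 660.0, 825, 658 and 679.5 CPM, with Plac8 at 317, 123, 300.2 and 142 CPM, Fn1 at 82.5, 357, 103 and 205 CPM and Ccr2, the receptor that brings monocytes into tissue, at 105, 199.8, 96.8 and 85.3 CPM. Ly6c2, which marks classical blood monocytes, had at most 3 UMIs in any library.

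Inflammatory transcripts were present and uneven. Il1b, which encodes interleukin-1 beta, was at 2232, 1079.9, 1042 and 2187 CPM, and the neutrophil attractant Cxcl2 at 2163, 625, 591 and 901 CPM. Ccl4, a chemokine for lymphocytes and monocytes, was at 961, 149, 384 and 234 CPM. ApcMin replicate 1 was the highest library for all 3 genes, and single cells held much of the count elsewhere, up to 39.0% of Il1b UMIs and 37.4% of Cxcl2 UMIs in ApcMin replicate 2. Il12b and Il23a, subunits of interleukins that drive T cell inflammation, were at 0. The list summed to 7231, 2636, 2953 and 4491 CPM. Immediate early and dissociation stress genes, led by Junb, Fos and Jun, summed to 14131, 5216, 7062 and 7965 CPM and were also highest in ApcMin replicate 1. Their part in the cytokine levels was not tested.

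Genes that restrain inflammation summed to 2045, 2168, 1520.1 and 2077 CPM. Tgfb1, encoding transforming growth factor beta 1, was at 555, 336, 607 and 512 CPM and the interleukin-1 receptor antagonist Il1rn at 265, 259, 155 and 265 CPM. Arg1, the arginine-degrading enzyme arginase 1, was at 109, 480.4, 42.0 and 357 CPM, but 81.6% of its UMIs in ApcMin replicate 1 and 76.9% in VApcMinL replicate 1 came from 1 cell each. Il10 had 13, 0, 6 and 1 UMIs, so its level rests on few counts. Chemokine genes summed to 4907, 6207, 4222 and 3303 CPM. Ccl24, an attractant of eosinophils, was at 1217, 3503, 1501 and 812 CPM with 46.1% of the UMIs of ApcMin replicate 2 in 1 cell, and Cxcl16, a chemokine for T cells that also binds oxidised lipoproteins, was at 774, 778, 662 and 834 CPM.

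The remaining groups were smaller. Interferon response genes summed to 1654, 1989.7, 1507 and 939 CPM, with Ifi27l2a at 457, 718, 707 and 297 CPM, Isg15 at 303, 199.8, 355 and 126 CPM and Cxcl10 at 355, 276, 100.1 and 155 CPM. Growth factor genes summed to 963, 850.3, 971 and 1119 CPM, with Igf1 at 84.7, 89.3, 100.1 and 98.0 CPM and Vegfa at 35.7, 106, 16.1 and 142 CPM after Tgfb1. Igf1 stayed within a narrow range, whereas Vegfa was higher in both kit 3 libraries. Wnt4, the Wnt ligand of the list, was at 78.0, 68.0, 109.7 and 44.2 CPM. Matrix remodelling genes summed to 2533, 3984, 2317 and 3521 CPM. The gelatinase Mmp9 was at 522, 1369, 684 and 913 CPM, the matrix protein Tgfbi at 669, 476, 591 and 635 CPM and the collagenase Mmp13 at 459, 523, 332 and 278 CPM. Growth factor receptors and transcription factors of myeloid cells summed to 5552, 6594, 4861 and 5695 CPM, with Cebpb at 1204, 935, 929.5 and 790.2 CPM beside Csf1r. Cell cycle genes summed to 774, 1241, 562 and 686 CPM. Hmgb2 was at 276, 438, 209.8 and 209 CPM, and Mki67, a marker of dividing cells, had 12, 33, 15 and 24 UMIs, of which 78.8% in ApcMin replicate 2 came from 1 cell.

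**Figure D2:**
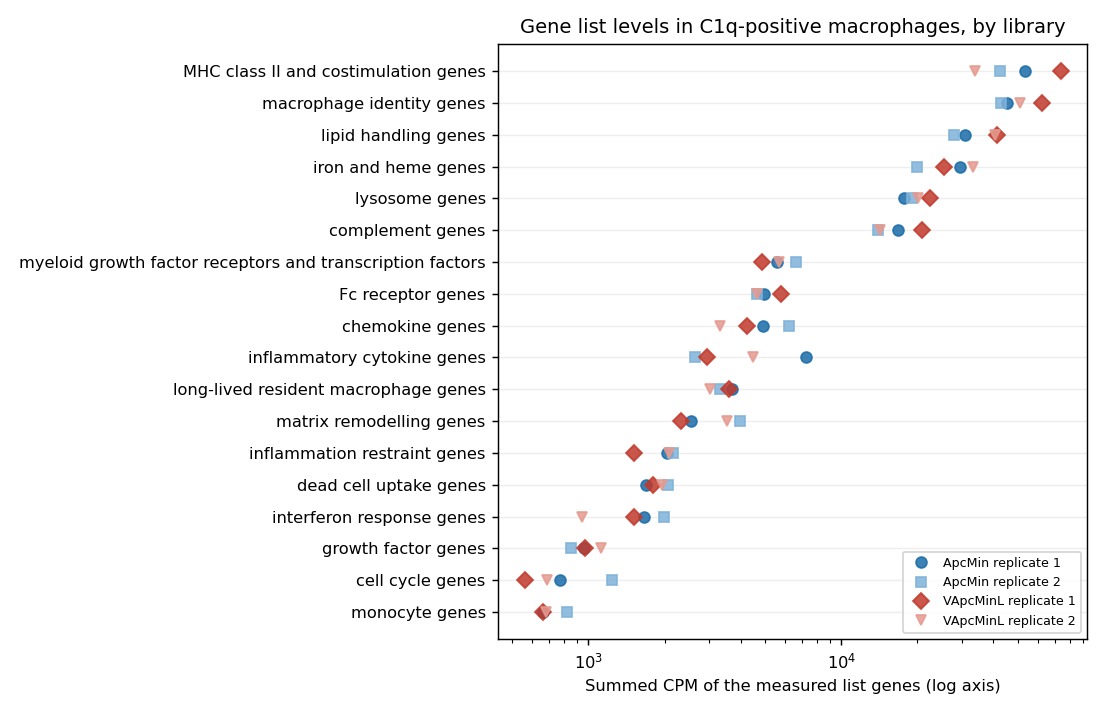
Summed CPM (log axis) of the 18 functional gene lists in the macrophages, with 1 point per library. MHC class II genes ranged from 33888 to 73760 CPM, and inflammatory cytokine genes from 2636 to 7231 CPM with ApcMin replicate 1 highest.

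Macrophages of the same library differed from each other. The 3 C1q genes made up from 0.128% to 3.27% of a cell's UMIs in ApcMin replicate 1 (median 1.55%), 0.0611% to 1.94% in ApcMin replicate 2 (1.30%), 0.0467% to 3.44% in VApcMinL replicate 1 (1.97%) and 0.0645% to 2.86% in VApcMinL replicate 2 (1.28%). The lowest cells of the 4 libraries had 70, 74, 1 and 16 Lyz2 UMIs. Their MHC class II shares were 5.37%, 3.09%, 0.203% and 3.02%. Barcodes that mostly hold free RNA had complement genes, C1q included, at 322, 333, 319 and 371 CPM. Whether free RNA gave the lowest C1q shares was not tested. Nor was the part of such cells in the relations below. Cells with a higher C1q share also had a higher share of lipid handling genes, with Spearman's rho of 0.64, 0.60, 0.38 and 0.71 over the 101, 22, 59 and 46 cells. For MHC class II genes rho was 0.43, 0.63, 0.46 and 0.45, for resident macrophage genes 0.39, 0.30, 0.44 and 0.40, and for lysosome genes 0.36, 0.33, 0.29 and 0.41. All 4 lists thus increased with C1q within each library. Monocyte genes gave rho of -0.40, -0.34, 0.01 and -0.25, inflammatory cytokine genes -0.32, -0.39, 0.08 and -0.53, and matrix remodelling genes -0.18, -0.24, -0.16 and -0.35. The relation with cytokine and monocyte genes was thus near 0 in VApcMinL replicate 1 and negative in the other libraries. The C1q share was only weakly related to the number of UMIs (rho from 0.10 to 0.18). Cytokine genes were positively related to the immediate early and stress genes, with rho of 0.51, 0.76, 0.64 and 0.63. Cells of a library share its preparation and shares of UMIs depend on each other, so these are descriptions over cells and not tests.

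**Figure D3:**
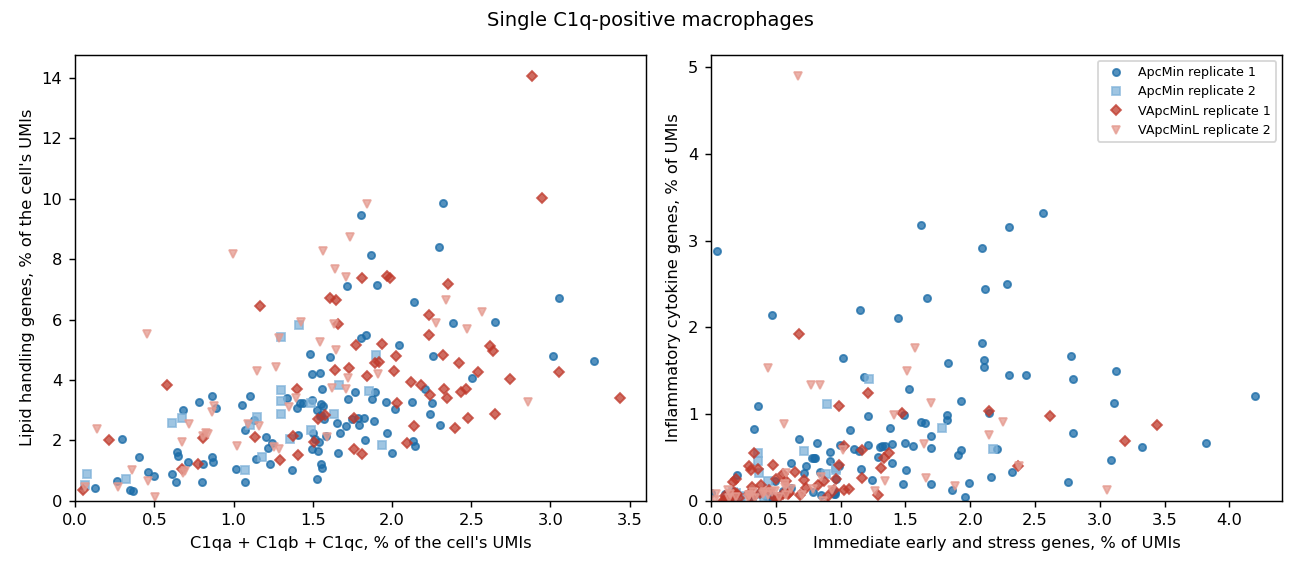
Single macrophages, coloured by library, as shares of each cell's UMIs. Left, lipid handling genes against the 3 C1q genes (rho from 0.38 to 0.71 within libraries); right, inflammatory cytokine genes against immediate early and stress genes (rho from 0.51 to 0.76), where ApcMin replicate 1 holds most cells at the upper right.

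C1q-negative myeloid cells of the same libraries were set beside the macrophages. They had Tyrobp, Fcer1g and at least 3 UMIs of Lyz2, Il1b, S100a8 or S100a9, none of the C1q genes, the mast cell genes Cpa3, Mcpt1 and Mcpt2 or Cd3, and the same epithelial limit. There were 20, 7, 16 and 24 of them. Differences between the classes follow from how both were chosen and are descriptions. Csf1r was at 142, 64.0, 229 and 256 CPM, Apoe at 2608, 144, 3635 and 1416 CPM and Pf4 at 0, 0, 175 and 0 CPM in C1q-negative cells, each below the macrophages of every library. Mmp13, Ccl12 and Igf1, chosen after their values were seen, had no UMI in C1q-negative cells, against 459, 523, 332 and 278 CPM, 343, 357, 297 and 133 CPM and 84.7, 89.3, 100.1 and 98.0 CPM in macrophages. Resident macrophage genes summed to 214, 448, 673 and 119 CPM and dead cell uptake genes to 383, 240.1, 525 and 439 CPM, also below every macrophage value. Plac8, of the monocyte list, was higher in C1q-negative cells at 2403, 1601, 2409.7 and 1654 CPM, as were Cd209a at 436, 496, 94.2 and 45.7 CPM and Ccr7, which guides dendritic cells to lymph nodes, at 303, 528, 229 and 73.1 CPM. S100a8 and S100a9 were part of the rule for the C1q-negative class. MHC class II genes summed to 57972, 41624, 42783 and 33582 CPM in C1q-negative cells, a range that overlapped that of the macrophages.

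Macrophages were a small part of each library. Their share of barcodes that passed the quality limits was 3.61% (95% exact interval 2.95% to 4.37%) in ApcMin replicate 1, 1.03% (0.644% to 1.55%) in ApcMin replicate 2, 1.99% (1.52% to 2.56%) in VApcMinL replicate 1 and 1.03% (0.758% to 1.38%) in VApcMinL replicate 2. ApcMin libraries averaged 2.32% ± 1.83 (SD, n = 2), and VApcMinL libraries averaged 1.51% ± 0.679 (SD, n = 2). This difference, -0.804 percentage points, did not pass a two-sided exact permutation test (p = 1.00), for which 0.333 is the smallest p that 2 libraries against 2 allow. Within kit 2 the difference was -1.62 points and within kit 3 it was 0.0085 points, and without ApcMin replicate 1 the sign turned, to 0.488 points. The kit 3 value depended on the setting. With a mitochondrial limit of 10%, ApcMin replicate 2 stood at 2.06% and VApcMinL replicate 2 at 1.22%, a difference of -0.837 points, and among barcodes with Ptprc, which encodes the leukocyte antigen CD45, the difference was 1.47 points. Of the selected myeloid cells, macrophages were 83.5% (75.6% to 89.6%), 75.9% (56.5% to 89.7%), 78.7% (67.7% to 87.3%) and 65.7% (53.4% to 76.7%). The difference of -7.48 points did not pass the same exact permutation test (p = 0.667) and was -4.80 points within kit 2 and -10.1 points within kit 3. Intervals cover counting error only, and dissociation can change the share of cells recovered.

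No gene differed between the groups in the macrophages at an adjusted p under 0.05. edgeR's quasi-likelihood test on counts summed per library, with the kit as a block, called 0 of 4157 genes (0%), while 107 genes had an unadjusted p under 0.05. DESeq2 also called 0, with 10 genes at an unadjusted p under 0.05. The genes with the lowest p are given as not called. Xist had the lowest, with 0, 0, 307 and 96 UMIs and an adjusted p of 0.0595 by edgeR with Benjamini-Hochberg adjustment. Against a limit of 3 counts in the ApcMin library of the same kit, it was at least 148-fold higher in kit 2 and at least 23.8-fold higher in kit 3. Barcodes with 10 to 100 UMIs held Xist in all libraries, at 222, 203, 628 and 206 CPM.

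Other genes with low p had an adjusted p of 1.00 by edgeR. Dnaja1, a cochaperone of HSP70, was at 161, 153, 313 and 322 CPM (log2 change 1.02, SE 0.26). Zfp36l2, which promotes decay of mRNA, was at 303, 281, 165 and 101 CPM (log2 -1.15, SE 0.28). Nrip1, a corepressor of nuclear receptors, was at 229.6, 268, 103 and 142 CPM (log2 -1.02, SE 0.27). Tgm2, a transglutaminase, was at 203, 315, 113 and 136 CPM (log2 -1.02, SE 0.26). The CPM of the groups did not overlap for these 4 genes, which were named for their low p, and neither did it for 22.3% of all 4157 genes tested (12.0% higher and 10.2% lower in VApcMinL), of which 0% were called. Nor did they for Cxcl10, a chemokine induced by interferon, at 355, 276, 100.1 and 155 CPM (log2 -1.32, SE 0.34), although 98.0% of its UMIs in VApcMinL replicate 2 came from 1 cell. Zfyve16 had 2, 0, 11 and 14 UMIs (log2 3.61, SE 0.85), and Wfdc18 had 18, 2, 41 and 8 (log2 1.65, SE 0.38). Spp1, which encodes osteopontin, had 32, 46, 10 and 28 UMIs (log2 -1.12, SE 0.29), of which 87.0% in ApcMin replicate 2 came from 1 cell. Top2a, a topoisomerase of dividing cells, had 18, 40, 7 and 14 UMIs (log2 -1.51, SE 0.40), with 97.5% in ApcMin replicate 2 from 1 cell. These counts were carried by a few cells.

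None of the 18 functional lists held a called gene, and 13 of their 170 tested genes had an unadjusted p under 0.05 (7.65%, against 2.57% of all genes tested). The lists were chosen with earlier results of these data known, so these shares are a description and not a test of the lists. The median log2 change over all genes tested was -0.01. Lysosome genes had a median of 0.26 (19 genes tested, 16 of them above 0), with 0.22 within kit 2 and 0.24 within kit 3. For lipid handling genes it was 0.35 (14 genes, 12 above 0), with 0.15 and 0.67. Fabp5, a fatty acid carrier of this list, was at 120.4, 136, 200.1 and 1021 CPM (log2 change 1.84, SE 0.55, adjusted p = 1.00 by edgeR), with VApcMinL replicate 2 apart from the other libraries. Interferon response genes had a median of -0.53 (9 genes, all below 0), with -0.08 and -0.78 within the kits, and cell cycle genes -0.65 (8 genes, 6 below 0), with -0.58 and -0.59. Chemokine genes had -0.38 (12 genes), with -0.35 and -0.59, and genes that restrain inflammation -0.48 (10 genes), with -0.63 and -0.15.

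For inflammatory cytokine genes the kits went opposite ways. Their median was -0.32 (13 genes), with -1.13 within kit 2 and 0.67 within kit 3, and immediate early and stress genes did likewise, with -0.32 (17 genes), -1.07 and 0.71. The kits also differed in sign for complement genes (median 0.04 over 9 genes), MHC class II genes (-0.05 over 10), dead cell uptake genes (-0.01 over 12), iron and heme genes (0.06 over 8) and growth factor genes (-0.02 over 7). In all, 12 of the 18 lists had a median of the same sign in both kits, and 47.5% of all genes tested had the same sign in both. The other lists had medians of 0.11 for identity genes (14 genes), 0.11 for Fc receptor genes (6), -0.20 for matrix remodelling genes (11) and -0.19 for receptors and transcription factors (13). For 2 lists the fit across both kits had the opposite sign to both within-kit medians. Resident macrophage genes (9) had -0.02 in the fit, 0.09 within kit 2 and 0.02 within kit 3. Monocyte genes (6) had 0.18 in the fit, -0.01 within kit 2 and -0.23 within kit 3.

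**Figure D4:**
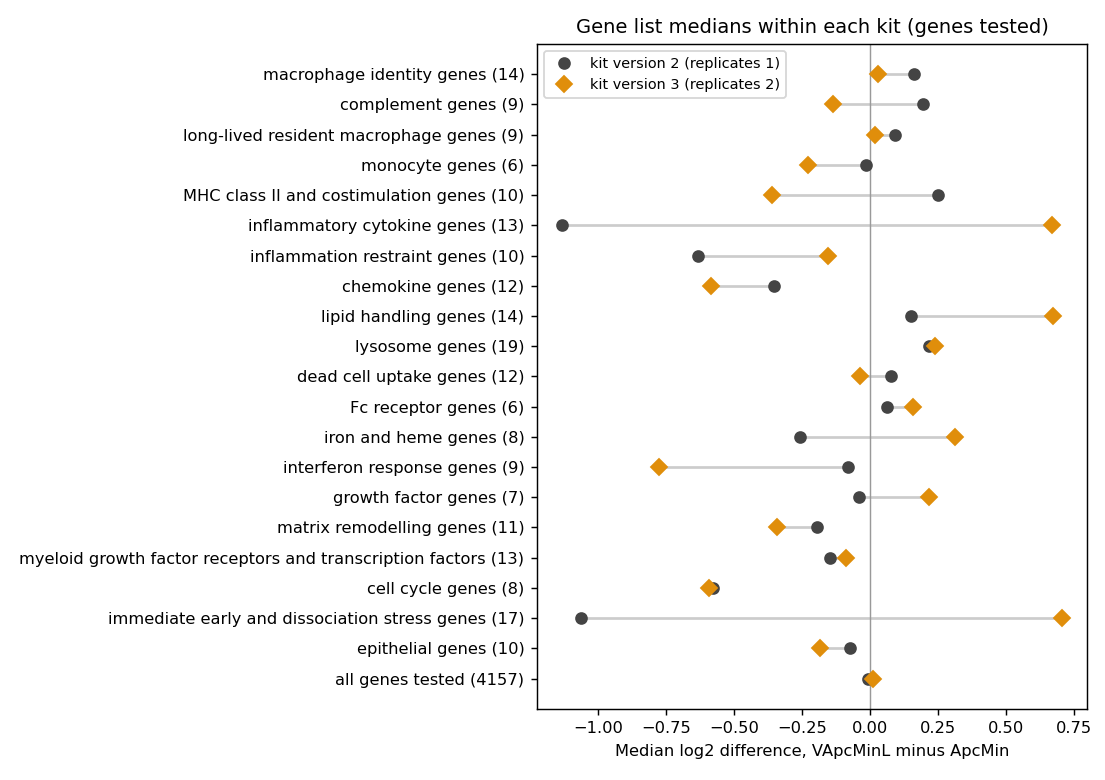
Median log2 difference (VApcMinL minus ApcMin) of each gene list with at least 5 tested genes, within kit version 2 (circles) and kit version 3 (diamonds); the number of genes tested stands in parentheses. Lysosome and cell cycle genes had nearly the same median in both kits, whereas cytokine and stress genes lay at -1.13 and -1.07 in kit 2 and at 0.67 and 0.71 in kit 3.

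Lyz1 levels in macrophages differed widely between libraries. Lyz1 encodes the lysozyme of Paneth cells and lies on chromosome 10 beside its close copy Lyz2. Whether reads shared by both genes affect its counts was not tested. Macrophages had 636, 163, 11 and 89 Lyz1 UMIs (1418, 693, 35.5 and 281 CPM), or 21.1, 11.0, 0.286 and 5.79 per 100 Lyz2 UMIs. Nearly all macrophages held Lyz1 in ApcMin replicate 1 (94 of 101) and ApcMin replicate 2 (20 of 22), but 10 of 59 did in VApcMinL replicate 1 and 27 of 46 in VApcMinL replicate 2. No single cell held more than 18.2% of the Lyz1 UMIs of a library. After thinning to 1000 UMIs the shares were 68.3%, 45.5%, 5.08% and 17.4% of macrophages, against 7.19%, 4.31%, 5.58% and 12.3% of epithelial cells. By these shares the macrophages of VApcMinL replicate 1 stood close to epithelial cells and those of both ApcMin libraries above them. Macrophages of VApcMinL replicate 2 were also above, at 17.4% against 12.3%. Epithelial cells, which include Paneth cells, were at 163, 169, 193 and 480.4 CPM and barcodes with 10 to 100 UMIs at 224, 237, 159.9 and 184 CPM. The macrophages of VApcMinL replicates 1 and 2 thus had less Lyz1 per UMI than the epithelial cells of their own library. In the low-UMI barcodes both ApcMin libraries were also above both VApcMinL libraries, over a narrower range than in macrophages. The part of free RNA in the macrophage values was not tested. C1q-negative myeloid cells followed the macrophages, at 614, 432, 26.9 and 174 CPM. Defa24, a defensin made by Paneth cells, was at 312, 106, 77.5 and 126 CPM in macrophages and 3005, 1023, 717 and 463 CPM in barcodes with 10 to 100 UMIs, so Lyz1 exceeded Defa24 in the macrophages of 3 libraries and Defa24 exceeded Lyz1 in the low-UMI barcodes of all 4.

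The change of Lyz1 between the groups was -2.98 on the log2 scale (SE 0.92, adjusted p = 1.00 by edgeR), with -5.14 within kit 2 and -1.23 within kit 3. It was called when macrophages needed at least 5 C1q UMIs (adjusted p = 0.0100) and when no gene was filtered (4.15e-11), both by edgeR with the kit as a block. Leaving out 1 library left a single library in a group and no kit block, which mixes kit with group. Lyz1 was called in some of those fits and not in others, and nothing is concluded from them. In VApcMinL replicate 2, macrophages with Xist alone had 11.5 Lyz1 UMIs per 100 Lyz2 UMIs (11 of 14 cells with Lyz1), and those with Y-linked transcripts alone had 2.33 (8 of 17 cells), with 34.0% and 43.8% of the UMIs in 1 cell. Within each of the other libraries all typed macrophages were of 1 kind, so this split was open to comparison in a single library and no test was made.

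**Figure D5:**
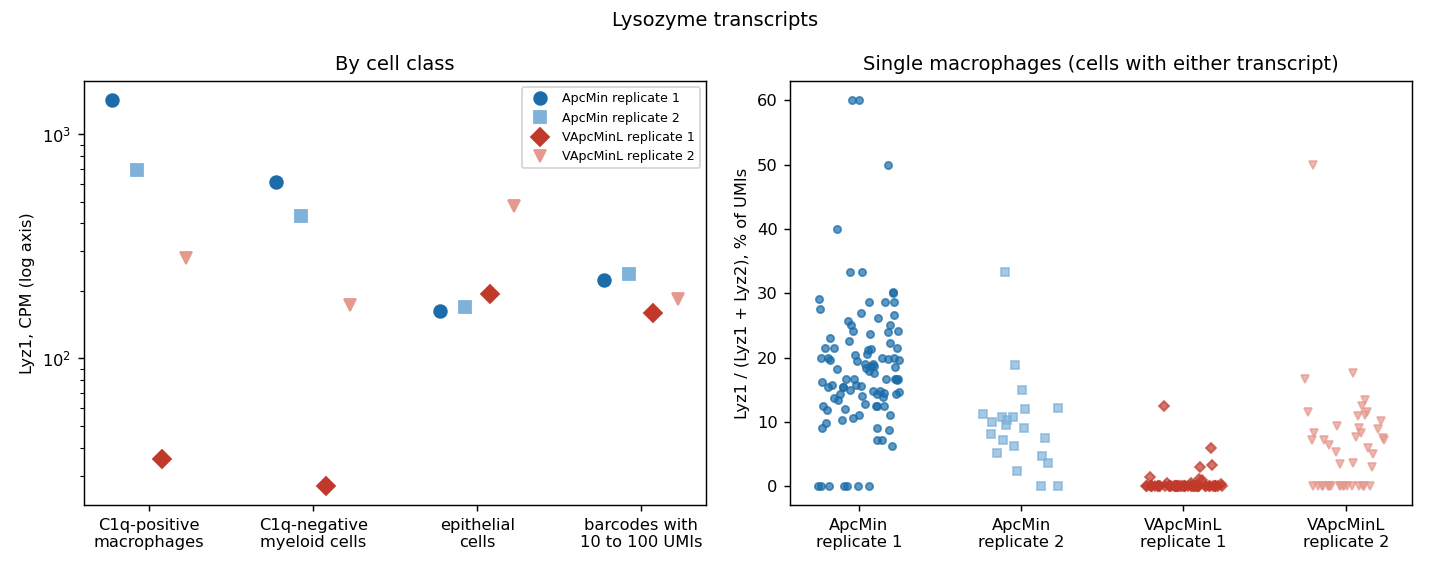
Left, Lyz1 in CPM (log axis) by cell class, with 1 point per library; right, Lyz1 as a percentage of Lyz1 plus Lyz2 UMIs in single macrophages of each library. Macrophages ranged from 35.5 CPM in VApcMinL replicate 1 to 1418 CPM in ApcMin replicate 1, whereas epithelial cells stayed between 163 and 480 CPM.

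The change between the groups was also compared between macrophages and C1q-negative myeloid cells. With the library as a block, edgeR called 2 of 3141 genes (0.0637%), Thbs1 and Cxcl2, and 142 had an unadjusted p under 0.05. Thbs1 encodes thrombospondin 1, an adhesive protein of the matrix. In macrophages it was at 252, 199.8, 132 and 123 CPM, lower in both libraries labelled VApcMinL. In C1q-negative cells it was at 125, 112, 1023 and 1224 CPM, higher in both. The difference between the classes was -4.00 on the log2 scale (SE 0.44, adjusted p = 0.0147 by edgeR). Cxcl2 was at 2163, 625, 591 and 901 CPM in macrophages and at 2688, 384, 9074 and 7082 CPM in C1q-negative cells, a difference of -3.46 (SE 0.39, adjusted p = 0.0147 by edgeR). The C1q-negative values rest on few cells. All 24 Cxcl2 UMIs of ApcMin replicate 2 were in 1 of 7 cells, 56.0% of those of ApcMin replicate 1 were in 1 of 20 cells, and Thbs1 had 14 and 7 UMIs in these libraries. Without the block on the library Cxcl2 was not called (adjusted p = 0.727 by edgeR). Markers within the C1q-negative class also differed between libraries. Its neutrophil genes summed to 1602, 1057, 754 and 6122 CPM and its dendritic cell genes to 997, 1297, 417 and 493 CPM. The part of this cell mix in the 2 differences was not tested.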

How the data were processed

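Adenoma cells of 4 libraries, 2 per group, were profiled with 10x 3′ kits. The authors deposited raw UMI counts per gene for all barcodes, made with Cell Ranger. Per the submitters' processing notes this was version 2.1.1 with Seurat 3.1.1, the study's methods give the mm10 reference, and kit 3 headers name version 3.1.0. The 27514 genes shared by the gene tables were used, and others held 0.192% to 0.568% of UMIs. No cell annotation was used. Macrophages were selected by the rule given in the opening. The members and gene lists were chosen with earlier results of these data known. Of the list genes, 6 were not measured.

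UMI counts were summed per library and compared with edgeR 4.0.16 (R 4.3.3; TMM scaling, minimum count 10, quasi-likelihood test, kit as block, Benjamini-Hochberg threshold 0.05), with log2 differences within kits at a prior count of 2. Scripts used Python 3.11.15, scipy 1.17.1 and scanpy 1.11.5. The edgeR fit was tested on simulated counts with the same fixed spread for every gene. That run does not give its error rate on these data. The labels tie the replicate number to the kit, so the number marks a batch, and kit 2 libraries deviated together from their group means (r = 0.46 across 4157 genes, which are not independent replicates). Shares were compared with exact permutation tests over 6 arrangements. Intervals are Clopper-Pearson at 95% and cover counting error only. Doublets were kept, and removing those scored highest by Scrublet (0.8% per 1000 barcodes) was an alternative. Other alternatives were DESeq2 1.42.0, RLE scaling, no filter, no block, leaving out each library, and other limits for UMIs, mitochondrial share, C1q and epithelial genes. Genes were named by a rule: the rule genes and markers, sex-linked genes and Lef1, called genes, the 3 highest genes of each list, the 15 highest genes overall and the 10 lowest p-values. Genes outside this rule were picked with their values known. Some genes of this rule are not reported here.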

Additional observations from a re-analysis of the deposited data

Results flagged for a closer look

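For 2 genes the VApcMinL against ApcMin change differed between C1q-positive macrophages and C1q-negative myeloid cells by the interaction term of edgeR. The difference was -4.00 on the log2 scale for Thbs1 and -3.46 for Cxcl2 (adjusted p = 0.0147 for both by edgeR). Leaving out each library in turn, an alternative chosen after seeing the data, left both genes called, with differences of -4.24 to -3.77 for Thbs1 and -4.08 to -3.06 for Cxcl2. The C1q-negative cells numbered 20, 7, 16 and 24 in ApcMin replicate 1, ApcMin replicate 2, VApcMinL replicate 1 and VApcMinL replicate 2. Among them, 1 cell held up to 71.4% of the Thbs1 UMIs and up to all of the Cxcl2 UMIs of a library. Their neutrophil and dendritic cell markers also differed between libraries, and the part of this cell mix was not tested. Macrophages of both ApcMin libraries had no Xist UMI, and 57 of 59 macrophages of VApcMinL replicate 1 held Xist. VApcMinL replicate 2 was mixed, with Xist alone in 14 macrophages and Y-linked transcripts alone in 17. The low-UMI barcodes of all libraries, ApcMin included, also held Xist. The groups were thus not cleanly split by sex. Genotype and sex still cannot be told apart in these differences, which rest on counts summed per library.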

How the results depend on the processing

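The count of genes called between the groups in macrophages was 0 and depended on the setting. It was 1 with no replicate block (Xist) and 1, again Xist, with a floor of 2000 UMIs, a mitochondrial limit of 10%, an epithelial limit of 0.1% or Scrublet doublets removed. It was 3 with a C1q sum of at least 5 UMIs (Xist, Lyz1 and Ddx3y) and 17 of 13161 genes with no filter on low counts. It stayed at 0 with DESeq2, RLE scaling and a floor of 500 UMIs. Leaving out 1 library, with no block, gave 6 calls without ApcMin replicate 1, 16 without ApcMin replicate 2, 15 without VApcMinL replicate 1 and 23 without VApcMinL replicate 2. The lone library of a group was then assumed to vary like the others. Xist was among the calls each time, Lyz1 was called without ApcMin replicate 2 and without VApcMinL replicate 2, and 4 red blood cell genes were in 3 of the 4. The count for the difference between cell classes was 2, and it was 1 with no replicate block, 21 with no filter and 10 to 41 when 1 library was left out (41 without ApcMin replicate 1). The share of macrophages among quality-passing barcodes differed by -2.10 to 0.488 percentage points when 1 library was left out, and the sign turned without ApcMin replicate 1 (0.488). The difference in their share of myeloid cells was below 0 under every alternative run. Of the genes with printed changes, Wfdc18 turned sign without VApcMinL replicate 1 (-0.21, in a range up to 3.33). List medians moved beyond the spread between kits in 51 of 252 recomputed values, and marker levels in 0 of 96. The block changed no other call. The causes were not tested. With 22 to 101 macrophages per library, low genes rest on a few cells.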
